A study of Caenorhabditis elegans with 2 samples.

Results

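Chromatin immunoprecipitation followed by sequencing (ChIP-seq) of TBX-2 in Caenorhabditis elegans gave 247 autosomal peaks that lay outside coding genes and away from their promoters, out of 1631 in the thresholded list that the authors deposited. That list was cut at an irreproducible discovery rate (IDR), which scores how well entries keep their rank from one replicate to the other. Its entries were the 1631 that the authors' peak caller gave the highest signal in the list of the pooled replicates. The cut thus fell on pooled signal, and not every entry ranked as high in both replicates. A peak was taken as distal intergenic where its summit lay on an autosome and in no protein-coding gene span. The summit also had to lie outside the window from 1000 bp upstream to 200 bp downstream of every coding transcript start, and more than 200 bp from every tRNA, snoRNA and snRNA gene. The other thresholded peaks comprised 628 in autosomal promoter windows, 190 in autosomal gene bodies, 158 near autosomal tRNA, snoRNA or snRNA genes, 386 on X and 22 on the mitochondrial genome. All samples belonged to 1 group, L3 larval hermaphrodites of strain OP159 (genotype unc-119(ed3) III; wgIs159) taken whole, 48 h after they were synchronized as starved L1 larvae from bleached adults. The strain carries an inserted transgene for TBX-2, tagged at its C-terminal end with GFP-FLAG, and the tagged protein was precipitated with anti-GFP from sonicated chromatin of 2 biological replicates. Which sequences drive the transgene was not given in the labels, and a whole-worm sample does not tell which cells a peak comes from. No untagged or input sample was used here, so no background value stands beside any peak. Whether the authors' own values take account of a control was not stated.

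TBX-2 belongs to the T-box family, transcription factors that recognise DNA through a conserved domain and whose preferred element contains the letters GGTGTGA. In C. elegans it is known for its need in pharyngeal muscle development. Most worm genes are compact, and their regulatory DNA often lies close to the start of transcription. Sites farther away can be enhancers, promoters of RNA genes, or the starts of long precursor transcripts that are trimmed by trans-splicing and so lie upstream of the annotated start.

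The strongest peaks are shown by sequence, because 4 of the 6 hold short sites that are frequent in the set. Each sequence is the window that reaches 100 bp to either side of the summit, from the WBcel235 assembly (RefSeq), 5′ to 3′, for 6 of the 9 strongest distal intergenic peaks. Capitals mark GAGAGA or its complement TCTCTC, and AGACGCAG or its complement CTGCGTCT.
sup-26 upstream, chrIII:4282111-4282311, plus strand: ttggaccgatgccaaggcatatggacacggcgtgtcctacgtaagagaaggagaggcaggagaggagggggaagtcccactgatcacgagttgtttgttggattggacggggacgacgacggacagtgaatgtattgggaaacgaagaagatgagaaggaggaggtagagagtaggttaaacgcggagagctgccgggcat
linc-128, chrV:1151389-1151589, plus strand: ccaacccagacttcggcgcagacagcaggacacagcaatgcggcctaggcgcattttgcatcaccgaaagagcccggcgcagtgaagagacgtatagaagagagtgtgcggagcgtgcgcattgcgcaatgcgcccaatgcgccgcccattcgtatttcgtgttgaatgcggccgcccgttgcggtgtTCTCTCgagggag
T04C4.3 and fnip-2, chrIV:2219558-2219758, plus strand: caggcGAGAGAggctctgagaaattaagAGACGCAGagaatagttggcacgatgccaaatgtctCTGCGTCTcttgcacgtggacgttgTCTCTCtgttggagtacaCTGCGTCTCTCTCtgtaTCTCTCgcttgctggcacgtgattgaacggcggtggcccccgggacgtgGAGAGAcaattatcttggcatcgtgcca
mtm-3 upstream, chrIII:3801458-3801658, plus strand: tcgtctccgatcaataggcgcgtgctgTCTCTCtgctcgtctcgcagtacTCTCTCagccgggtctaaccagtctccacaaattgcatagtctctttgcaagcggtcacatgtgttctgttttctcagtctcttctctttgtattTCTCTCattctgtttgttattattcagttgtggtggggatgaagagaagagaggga
F07H5.7 and appg-2, chrII:8796545-8796745, plus strand: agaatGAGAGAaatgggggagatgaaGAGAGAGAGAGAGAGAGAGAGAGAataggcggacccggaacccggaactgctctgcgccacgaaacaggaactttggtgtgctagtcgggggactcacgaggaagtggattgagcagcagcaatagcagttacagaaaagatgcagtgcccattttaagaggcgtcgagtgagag
mrpl-20 upstream, chrII:13335384-13335584, plus strand: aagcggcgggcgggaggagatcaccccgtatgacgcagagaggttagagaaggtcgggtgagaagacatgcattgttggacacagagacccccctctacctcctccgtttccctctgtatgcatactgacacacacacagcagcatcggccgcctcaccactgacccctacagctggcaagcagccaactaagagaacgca
The window between T04C4.3 and fnip-2 held 6 matches to GAGAGA and 3 to AGACGCAG on both strands, with overlapping matches counted apart. The window between F07H5.7 and appg-2 held 11 matches to GAGAGA, most of them in 1 uninterrupted GA repeat. The windows upstream of sup-26 and mrpl-20 held neither site. The guanine and cytosine (GC) content of the 6 windows ran from 46.8% for mtm-3 to 60.2% for linc-128, against a mean of 34.4% over the 96111 windows of that size that tile the autosomal sequence meeting the location rule.

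The signal value, the strength that the authors' peak caller gave each entry in its own units, had a median of 130 over the 247 distal intergenic peaks (exact binomial 95% interval of the median 122 to 137) and ran from 91.1 to 949. Promoter peaks had a median of 142 (137 to 151) and gene body peaks one of 129 (118 to 142). Only 3 distal intergenic peaks were above 500 and 45 were above 200, and 3 of them were among the strongest 50 nuclear peaks. Distal intergenic peaks were 20.2% of the 1223 autosomal thresholded peaks (exact 95% interval 18.0 to 22.6%). By chromosome they numbered 39 on I, 44 on II, 51 on III, 57 on IV and 56 on V. Their share of the thresholded peaks of a chromosome ran from 15.1% on I (exact 95% interval 10.98 to 20.1%) to 25.7% on IV (20.1 to 31.9%), with intervals that barely overlap. Intervals of shares cover the number of peaks only, since the lists hold no read counts and the depth is unknown. Whether intervals overlap is given as a description and is not a test of a difference.

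The strongest distal intergenic peak lay at chrIII:4281932-4282574, 1987 bp upstream of sup-26, which encodes an RNA-binding protein. Its pooled signal value was 949 (replicate 1, 524; replicate 2, 433), which ranked 37 among all 1631. The same interval held a further summit 216 bp away with a signal value of 232. On V, a peak of 899 at chrV:1151287-1151711 had its summit inside the long noncoding RNA gene linc-128, 4782 bp upstream of cmd-1, the calmodulin gene. Replicate 1 gave it 457 and replicate 2 gave it 442. The peak at chrIV:2219479-2219830, with a pooled value of 635 (replicate 1, 336; replicate 2, 299), lay between 2 genes that point away from each other, T04C4.3 and fnip-2. After these 3 peaks the values dropped to 459, at the strongest peak of chromosome I. That peak, at chrI:2639636-2639930, lay 392 bp past the end of F40E3.3, with 271 in replicate 1 and 188 in replicate 2. The 41 bases around its summit occur at 2 places in the genome. The strongest peak on II, at chrII:8796492-8796771 between F07H5.7 and appg-2, reached 341.

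Among the 15 strongest, several lay upstream of genes for transcription factors and enzymes. The peak at chrV:20778278-20778563 lay 1985 bp upstream of hif-1, which encodes the hypoxia-inducible factor, and its pooled value was 312 (replicate 1, 187; replicate 2, 130). The peak at chrV:6000397-6000562, with a pooled value of 311, lay 3120 bp upstream of fos-1, a Fos family gene needed for anchor cell invasion in the vulva. The peak at chrV:14366536-14366937, with 298, lay 6288 bp upstream of unc-39, a homeobox gene of the sine oculis family. The peak of 343 at chrIII:3801413-3801660 lay 1091 bp upstream of mtm-3, a myotubularin lipid phosphatase gene, close to the limit of the promoter window. Upstream of mrpl-20, which encodes a protein of the mitochondrial ribosome, a peak of 341 lay at a distance of 2797 bp. A peak of 360 at chrI:8786789-8787073 lay 1509 bp upstream of mfb-1, a gene for an F-box protein, and 6040 bp from sup-17, which encodes an ADAM metalloprotease. The other 4 of the 15 were at nlp-40, tent-5, F58D12.3 and F22B7.9, with signal values of 453, 338, 331 and 305. The nlp-40 peak, by a neuropeptide gene whose product acts in the defecation rhythm, lay 173 bp past the gene's end, between genes that point toward each other. The tent-5 peak, 361 bp past the end of a gene for a terminal nucleotidyltransferase, had its summit inside an annotated pseudogene. The 15 strongest were all in the top 1631 of both replicates. A peak chosen after its value was seen, at chrV:10466696-10466839, lay 1709 bp upstream of egl-9, which encodes the prolyl hydroxylase that marks HIF-1 for destruction, and had a signal value of 238.

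All 247 distal intergenic peaks overlapped an entry in both replicate lists. Across them, the strongest overlapping entry of each replicate gave a Spearman rho of 0.650, against 0.745 over 626 promoter peaks and 0.725 over 190 gene body peaks. With the overlapping entry of nearest summit, rho was 0.598, against 0.728 and 0.638, so the gap to gene body peaks was smaller. These are descriptions across peaks, which share both libraries, and neighbouring peaks can share an entry. The median ratio of replicate 1 over replicate 2 was 1.21, and replicate 1 was the higher in 186 of the 247, while the lists were not normalized to each other. In all, 169 distal intergenic peaks, 68.4% (exact 95% interval 62.2 to 74.2%), had a summit within 100 bp in the top 1631 entries of both replicates, against 70.6% of all 1631 peaks. Of the others, 6 had one in neither. The list was made from the replicates themselves, so being found in each of them adds no independent support. Most of the set, 177 peaks or 71.7%, were exactly 420 bp wide. That width was common in every class: 60.0% of promoter, 67.9% of gene body, 68.4% of small RNA gene and 62.2% of X peaks. Those 177 had a median signal value of 117 and a highest one of 227, and 59.3% were in both top lists. The 70 peaks of another width had a median of 215, and 91.4% were in both.

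**Figure D1:**
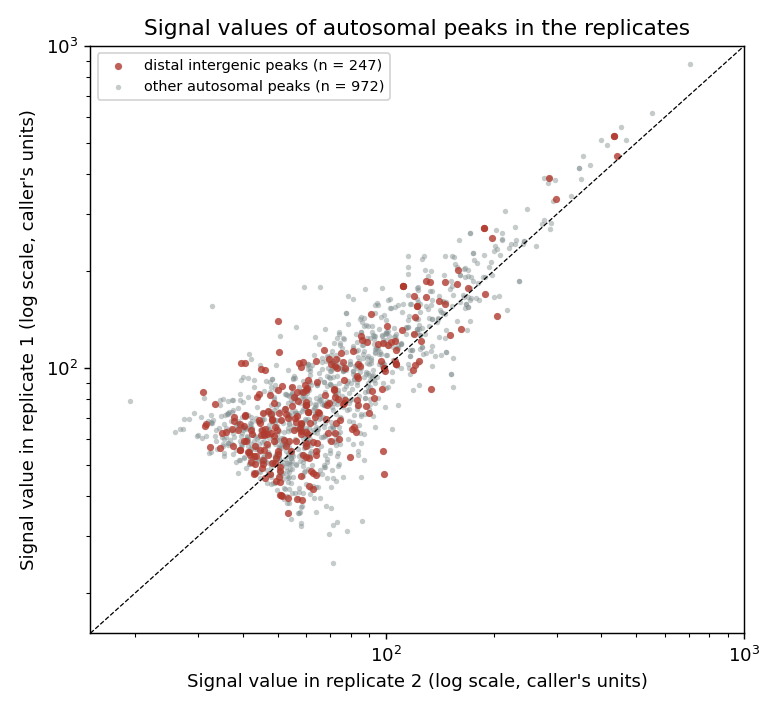
Signal value in replicate 1 (vertical, log scale) against that in replicate 2 (horizontal, log scale) for each autosomal thresholded peak, by its strongest overlapping entry; red points are the 247 distal intergenic peaks, grey points the other autosomal peaks with an entry in both lists, and the dashed line marks equal values. The red points lie within the grey ones, 186 of them above the line.

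A few peaks differed most between replicates by the strongest entry that overlapped them in each, which neighbouring summits can share. The highest ratio of replicate 1 over replicate 2, 2.79, was at chrII:11761792-11762083, where the values were 140 in replicate 1 and 50.2 in replicate 2. That peak lay 66 bp past the end of F44E5.5, an HSP70 family gene, in a window with a GC content of 23.4%. The next were near F25E5.9, with a ratio of 2.72, and W06H8.6, with 2.62. The lowest ratios were 0.475 near gln-3, a glutamine synthetase gene, 0.559 upstream of cpt-1 and 0.640 near T28F4.1. At the gln-3 peak replicate 1 had 47.0 and replicate 2 had 98.8, and 78.6% of its window was soft-masked as repeat or low-complexity sequence.

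Near the threshold, the 3 weakest distal intergenic peaks had signal values of 91.6 near pitp-1, 91.1 near R13H4.5 and 91.1 near ulp-4. The 3 strongest entries at such locations that were not thresholded had 90.6 near saeg-1, 90.3 near clec-182 and 90.2 near unc-116. No gap in signal value separated the 2 sides, and their order follows from the list being cut on that value. The location rule has close neighbours too. The nearest upstream summit inside the set was 1001 bp from a transcript start, with a signal value of 160, and the farthest promoter summit outside gene spans was at 969 bp with 206. One of the peaks lay 203 bp from sls-2.2, a spliced leader RNA gene, at chrII:5543376-5544213, where a stronger summit shares the interval. At its own summit the pooled value was 200.9 (replicate 1, 79.7; replicate 2, 133).

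Distal intergenic sequence as the rule defines it made up 19.3 Mb, 23.4% of the autosomes, and held 12.8 thresholded peaks per Mb. Promoter windows held 28.3 per Mb and gene bodies outside them 4.68 per Mb, so the distal set lay between these. Sequence near tRNA, snoRNA and snRNA genes held 415 per Mb. Over the autosomes as a whole there were 14.8 per Mb, more than in the distal sequence. Among entries of the pooled list that met the rule, 247 of 4615 were thresholded, 5.35%, against 5.44% of all 30000 pooled entries. The summits lay a median of 2291 bp from the nearest coding transcript start (quartiles 1464 and 3322 bp), and the unthresholded entries at such locations lay a median of 2459.5 bp away. In all, 181 summits, 73.3% (exact 95% interval 67.3 to 78.7%), were upstream of their nearest start, against 66.3% (64.9 to 67.7%) of the unthresholded ones. The distance was at most 1000 bp for 6 peaks, all of them downstream of a start and past the gene's end. It was 1001 to 2000 bp for 98 peaks, up to 5000 bp for 115 more and over 5000 bp for 28. The 3 farthest were 15052 bp from T06A4.1, 13341 bp from irld-18 and 12812 bp from C31H1.2, with signal values of 106, 156 and 116. Signal value did not order with distance: the median was 123 up to 2000 bp, 134 to 5000 bp and 125 beyond.

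**Figure D2:**
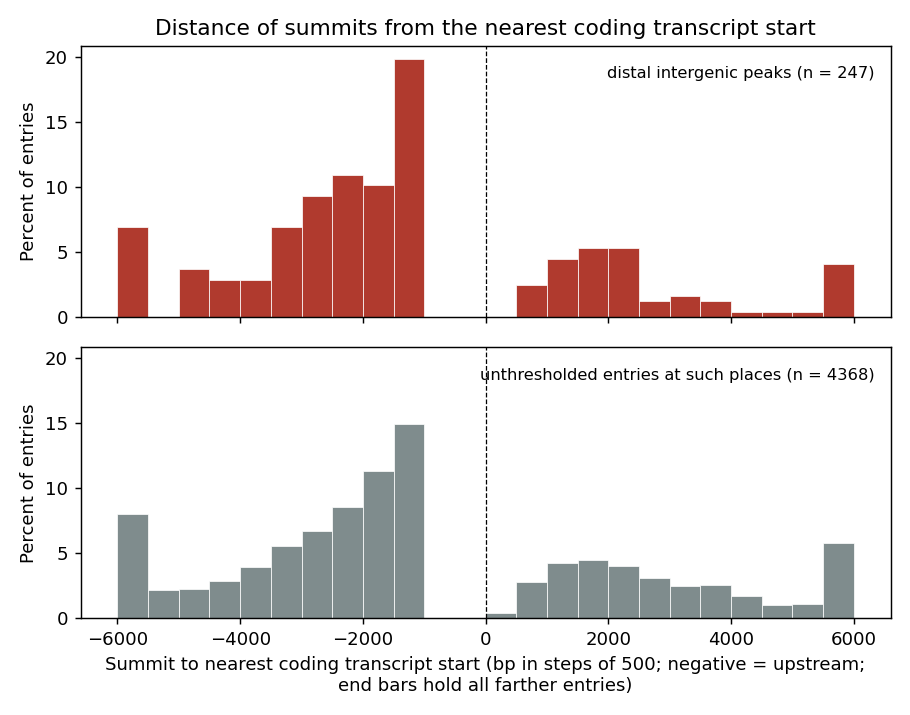
Percent of entries (vertical) by signed distance in bp from the summit to the nearest coding transcript start (horizontal, steps of 500 bp, negative values upstream, end bars holding all farther entries); red bars above are the 247 distal intergenic peaks, grey bars below the 4368 unthresholded entries that meet the same rule. The tallest red bar is the step just beyond the promoter window, and the upstream side holds 73.3% of the red entries, against 66.3% of the grey ones.

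The flanking genes of these peaks seldom pointed toward each other. Of the 247 summits, 75 lay between divergent genes, 151 between genes in tandem and 21 between convergent genes. The convergent share was 8.50% (exact 95% interval 5.34 to 12.7%), against 14.2% (13.1 to 15.2%) of the unthresholded entries and 17.6% of the distal intergenic sequence itself. Per Mb of such sequence there were 13.5 peaks between divergent genes, 14.6 between tandem genes and 6.19 between convergent genes. The median signal value was 131, 128 and 135 in these groups, so the peaks between convergent genes were fewer per Mb but no lower at the median. The central 50% of each chromosome, by length, held 158 summits, 64.0% (exact 95% interval 57.6 to 70.0%). It held 63.3% of the other autosomal thresholded peaks, 53.1% of the unthresholded entries and 46.4% of distal intergenic sequence. The 89 peaks on the outer parts had a median of 140 and the 158 in the centre one of 122, with intervals that overlap (128 to 156 and 114 to 132).

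Some of the peaks came in short runs. In 38 cases another distal intergenic peak lay within 2000 bp, while the median distance to the nearest thresholded peak of any kind was 9832 bp. Some of these were pairs of summits only 199 to 216 bp apart, closer than the common peak width of 420 bp. Such pairs need not be separate sites. The largest run was 4 summits over 3200 bp between the divergent genes lpin-1, a lipin gene of lipid synthesis, and letm-1, which encodes a mitochondrial inner membrane protein. Their signal values, read from lpin-1 to letm-1, were 96.6, 108, 139 and 276. Runs of 3 lay upstream of W06H8.6, with values from 111 to 137, and within chrIV:14032928-14034624, the widest interval of the set. Whether neighbouring summits share fragments was not tested. The region around tbx-2 itself, at chrIII:5130923-5136296, held no member within 15000 bp. The 14 thresholded summits there were in gene bodies or promoter windows by the rule, and the nearest distal intergenic peak was 370228 bp away.

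RNA genes or pseudogenes lay within 200 bp of 65 of the 247 summits. That is 26.3% (exact 95% interval 20.9 to 32.3%), against 18.7% (17.6 to 19.9%) of the unthresholded entries and 26.7% of distal intergenic sequence. The makeup differed by kind. Genes of the annotation's general ncRNA class, transcripts mostly of unknown role, were near 55 summits, 22.3% (17.2 to 28.0%), against 9.09% of the unthresholded entries and 3.95% of the sequence. Pseudogenes were near 3 summits, 1.21%, against 5.40% of the unthresholded entries and 14.6% of the sequence. The piRNA genes, which encode the short guides of the PRG-1 pathway and crowd chromosome IV, were near 3 summits, 1.21%, against 3.04% of the unthresholded entries and 7.89% of the sequence (21ur-11069, 21ur-8870 and 21ur-6898, with signal values of 174, 145 and 116). The strongest peaks at ncRNA genes were at C10F3.15 with 311, F56A12.8 with 298, Y37A1B.336 with 277 and H37A05.6 with 276. All were named above under other genes or intervals. C10F3.15 holds the summit of the fos-1 peak, and F56A12.8 is at the unc-39 peak. Y37A1B.336 is at the widest interval, and H37A05.6 is in the run by letm-1. The strongest pseudogene peaks, the tent-5 one included, had 338, 296 and 280. Long intergenic RNA genes were near 4 summits, 1.62% (exact 95% interval 0.443 to 4.09%), a share whose interval spans the 1.42% of the unthresholded entries and the 0.985% of the sequence. They were linc-128 with 899, linc-91 with 296, linc-153 with 109 and linc-151 with 100.1. No summit lay near an rRNA gene or an annotated antisense RNA gene, which allows a share of up to 1.48% for each (exact 95% bound). The shares were 0.0229% and 0.0916% of the unthresholded entries, and 0.0764% and 0.0765% of the sequence. With shares this small, their absence among 247 summits tells little.

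MicroRNA genes, which encode short RNAs that pair with messenger RNAs through a seed at bases 2 to 8, were near 5 summits, 2.02% (exact 95% interval 0.660 to 4.66%), against 0.458% of the unthresholded entries and 0.169% of the sequence. At mir-52 the summit lay 160 bp from the gene, where the pooled value was 226 (replicate 1, 120; replicate 2, 104). Summits at mir-51 and mir-53, 1782 bp apart between alh-3 and hrg-5, had pooled values of 131 and 137. The mir-51 summit was inside the gene, and its replicates had 52.7 and 79.7. The mir-53 summit was 138 bp from the gene, with 77.0 in replicate 1 and 60.0 in replicate 2. The peak near mir-80 had 108 at 183 bp from the gene, with 59.1 in replicate 1 and 53.7 in replicate 2, and the one inside mir-8209 had 132. The mature sequences from RefSeq show what 3 of these genes share. Of the 2 products annotated for each gene, the ones below are written as RNA with the seed in capitals.
mir-51, product a, chrIV:11026074-11026096, minus strand: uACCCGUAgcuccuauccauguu
mir-52, product a, chrIV:14034024-14034047, plus strand: cACCCGUAcauauguuuccgugcu
mir-53, product a, chrIV:11027653-11027676, minus strand: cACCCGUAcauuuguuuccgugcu
mir-80, product b, chrIII:8865285-8865307, minus strand: uGAGAUCAuuaguugaaagccga
The products of mir-51, mir-52 and mir-53 have the same seed, ACCCGUA. They are members of the mir-51 family, needed together for embryonic development. The product of mir-80 has the seed GAGAUCA, that of the mir-58 family, which is related to the bantam microRNA of flies.

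Genes of several lists were counted where their start was the nearest coding start of a distal intergenic peak. Of 17242 autosomal protein-coding genes, 222 or 1.29% were the nearest coding start of such a peak. None of 19 autosomal T-box factor genes, 6 Hox genes, 10 pharyngeal regulator genes, 68 histone genes or 129 collagen genes was among them. With lists this short the exact 95% upper bounds reach 17.6% for T-box factors, 45.9% for Hox genes and 30.8% for pharyngeal regulators. They were 5.28% for histone genes and 2.82% for collagen genes. All these bounds lie above 1.29%, so having none does not set these lists apart from all coding genes. Of 79 ribosomal protein genes 1 was, rps-25 of the small subunit, 5599 bp away with a signal value of 93.8. Nuclear hormone receptor genes, ligand-regulated factors that are many in this worm, had 5 of 246, 2.03% (exact 95% interval 0.663 to 4.68%), which spans the background share. They were nhr-88 with 245, nhr-20 with 214, nhr-21 with 208 and a weaker summit of 93.1, nhr-34 with 117 and nhr-5 with 111. All of these were upstream, from 1402 to 4642 bp. Of the 5 autosomal coding genes of the heterochronic list, which time larval development, 2 were nearest to a peak. The exact 95% interval of that share is wide, 5.27 to 85.3%. The lin-41 peak, upstream of a gene for an RNA-binding protein that let-7 represses, lay at chrI:9343749-9344168 at a distance of 1463 bp. The pooled value was 205 (replicate 1, 118; replicate 2, 95.4). The peak near lin-42, the worm's period homolog, was weaker, with a pooled value of 97.2 (replicate 1, 39.0; replicate 2, 58.6). It lay 78 bp past the end of the gene, and 83.6% of its window was soft-masked. The nearest start need not be the gene a site acts on.

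Sequence sites in these windows separated the distal intergenic peaks from their surroundings. Each site was counted on both strands. The GAGA-type site GAGAGA, a stretch of the repeat bound by the GAGA factor in flies, was in 150 of 247 windows, 60.7% (exact 95% interval 54.3 to 66.9%). It was in 23.4% (22.1 to 24.7%) of the 4368 unthresholded entries at such locations, in 12.3% (9.58 to 15.6%) of windows 1000 bp to either side of the peaks, and in 10.5% of all 96111 windows of distal intergenic sequence. Among other thresholded peaks the share was 36.6% (32.8 to 40.5%) in promoters, 51.1% in gene bodies, 20.9% near small RNA genes and 43.3% on X. The interval of the distal intergenic peaks lies above those of promoter, small RNA gene and X peaks and overlaps that of gene body peaks (43.7 to 58.4%). Of the 150 windows, 51 had a single match and 99 had more, overlapping matches included. The longest GA run was 48 bp, and 27 windows had a run of at least 12 bp.

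A count of all 8-base words, made after other results were seen, gave 5 words that were in at least 20% of the windows. They form 2 groups of overlapping words, the GA repeat (AGAGAGAG and GAGAGAGA, each in 25.5%) and AGACGCAG with its shifts GAGACGCA and GACGCAGA. AGACGCAG was in 62 windows, 25.1% (exact 95% interval 19.8 to 31.0%), against 4.65% (4.04 to 5.31%) of the unthresholded entries, 0.810% of the flanking windows and 1.29% of all windows of distal intergenic sequence. Promoter peaks had it in 15.6% (12.9 to 18.7%), peaks near small RNA genes in 1.90% and X peaks in 10.1%. Gene body peaks had it in 38 of 190, 20% (14.6 to 26.4%), an interval that overlaps that of the distal intergenic peaks. GAGAGA and AGACGCAG can overlap by a few letters, and 51 windows had both. A further 11 had AGACGCAG without GAGAGA, and 86 had neither. As this word was picked for being frequent here, its share in these windows is a description.

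The T-box core GGTGTG was in 19 windows, 7.69% (exact 95% interval 4.69 to 11.8%), against 6.55% (5.83 to 7.32%) of the unthresholded entries, 5.47% (3.63 to 7.85%) of the flanking windows and 4.74% of all windows of distal intergenic sequence. Promoter peaks had it in 6.53%. All of these shares lie within the interval of the distal intergenic peaks. The longer GGTGTGA was in 1 window, 0.405% (0.0102 to 2.23%), against 1.63% of the unthresholded entries and 1.33% of all windows. That window lay 1694 bp upstream of asd-1, which encodes an RNA-binding splicing regulator, under a peak with a pooled value of 281 (replicate 1, 156; replicate 2, 122). It is shown with the match, on the minus strand, in capitals.
asd-1 upstream, chrIII:4195491-4195691, plus strand: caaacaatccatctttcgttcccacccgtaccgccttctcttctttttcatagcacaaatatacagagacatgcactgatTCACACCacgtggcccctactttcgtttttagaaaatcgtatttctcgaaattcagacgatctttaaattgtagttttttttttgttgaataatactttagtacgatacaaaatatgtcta

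**Figure D3:**
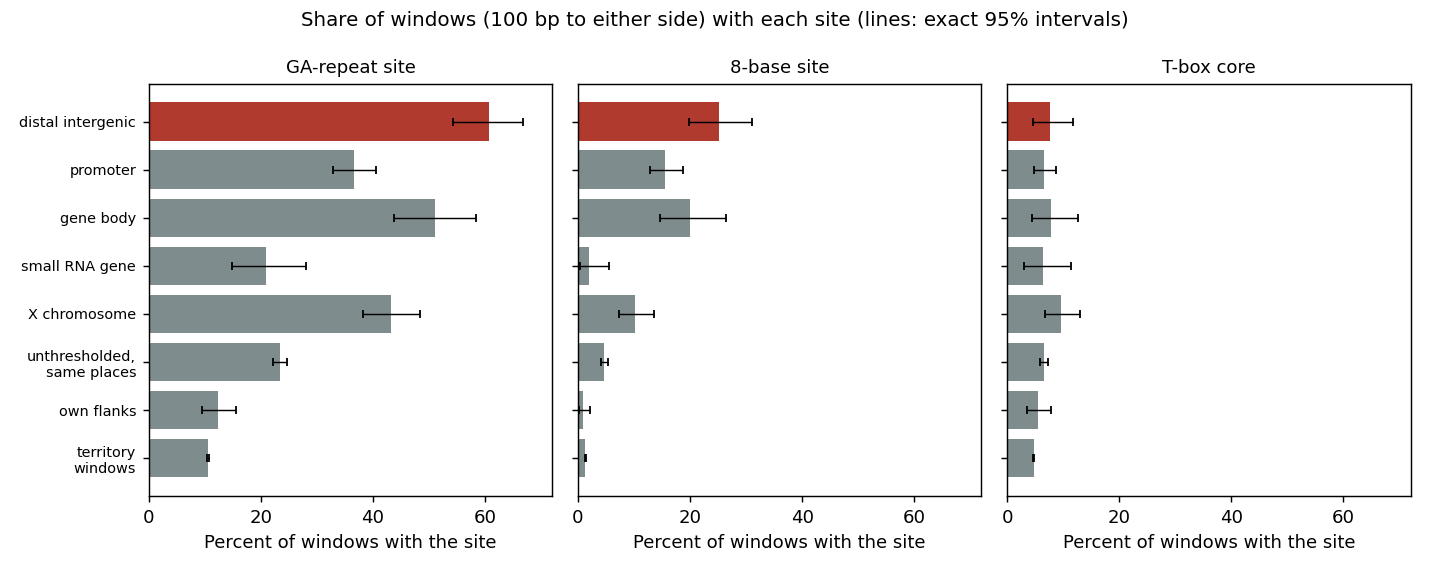
Percent of windows reaching 100 bp to either side of the summit (horizontal) with a GAGAGA match (GA-repeat site), an AGACGCAG match (8-base site) or a GGTGTG match (T-box core) in each set of windows (vertical); the red bar is the distal intergenic peaks, grey bars are the other sets, and black lines are exact 95% intervals. The red bar is the longest for the first site at 60.7% and for the second at 25.1%, while for the T-box core all the bars are short, at 9.59% or less.

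Other sites differed by fewer percentage points, some of them downward. The GC-rich GGGCGG was in 11.7% of the windows (exact 95% interval 8.01 to 16.4%), against 6.94% of unthresholded entries and 4.66% of flanks. The AT-rich homeodomain core TAATTA was in 3.64% (1.68 to 6.80%), against 9.68% (8.82 to 10.6%) and 11.7% (9.04 to 14.9%), and the GATA site TGATAA was in 12.6% (8.69 to 17.3%), against 15.3% and 20.04%. The E-box CANNTG was in 58.7%, against 53.8% and 50.2%. The forkhead sites TGTTTAC and TGTTTGC were in 2.43% and 6.07%, against 2.15% and 3.69% of unthresholded entries. GTCAT and ATCAT, cores of SKN-1-like sites, were in 30.4% and 28.3%, against 27.1% and 36.1% of unthresholded entries. Among the other 5 sites searched, GGGTGG was in 7.69%, against 6.98%, TGANTCA in 3.24%, against 5.01%, TGACGTCA in 2.43%, against 1.42%, TTAGGC in 2.43% (0.897 to 5.21%), against 6.20% (5.51 to 6.96%), and CACTTAA in 0.810%, against 1.58%. The mean GC content was 45.7% in the distal intergenic windows, 38.2% in unthresholded entries, 35.3% in flanks and 34.4% over all windows of distal intergenic sequence. It was 44.0% in promoter peaks and 46.6% in gene body peaks.

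GC content moved with the 2 frequent sites, so their shares were also counted within ranges of GC. Below 40% GC, 28.6% (exact 95% interval 17.3 to 42.2%) of 56 distal intergenic windows had GAGAGA, against 15.4% (14.0 to 16.8%) of 2649 unthresholded ones. From 40 to 45% the shares were 52.1% (37.2 to 66.7%) and 36.2% (32.9 to 39.6%). From 45 to 50% they were 74.3% (62.4 to 84.0%) and 37.6% (33.7 to 41.7%), and from 50% up they were 78.1% (66.9 to 86.9%) and 31.3% (26.3 to 36.5%). The share was the higher in distal intergenic peaks in all 4 ranges, with intervals that do not overlap in 3 of them. AGACGCAG was likewise in 34.3% of the distal intergenic windows from 45 to 50% GC, against 11.3% of the unthresholded ones, and in 32.9% from 50% up, against 10.4%. The part of GC content within these ranges was not tested.

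Both sites gathered near the summit. In steps of 50 bp, GAGAGA was present in 27.1% of the peaks just upstream of the summit on the plus strand and in 4.05% at the step farthest upstream, 450 to 500 bp away. AGACGCAG reached 10.9% in the step just upstream and was at 0% to 1.21% beyond 200 bp on either side. The T-box core stayed between 0% and 3.64% over the whole window.

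**Figure D4:**
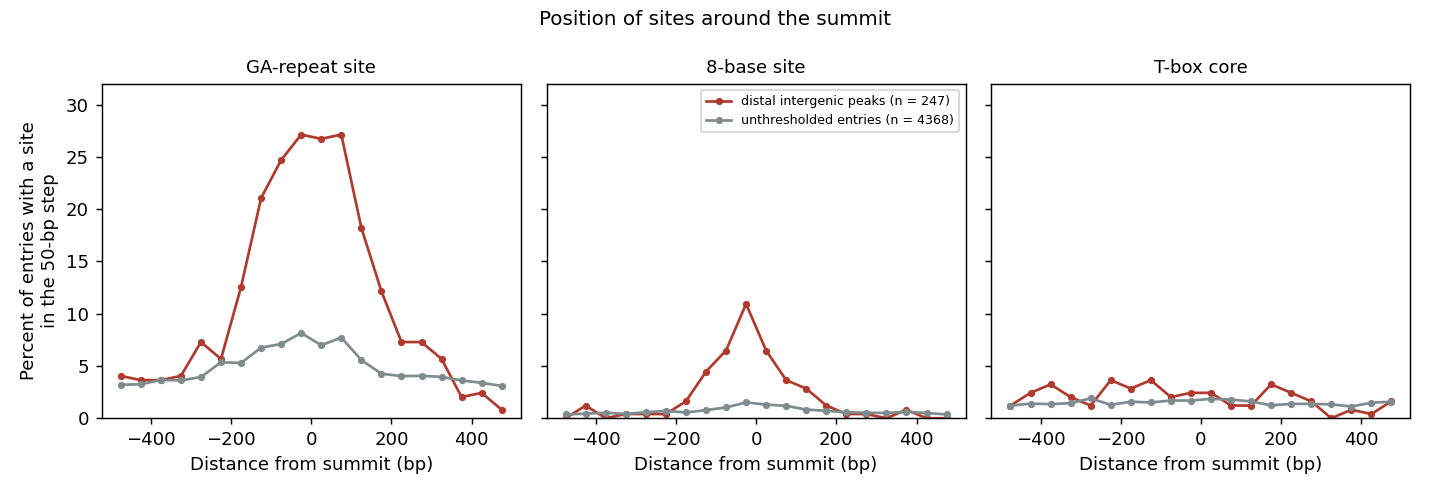
Percent of entries with a site centred in each 50-bp step (vertical) by distance from the summit in bp along the plus strand (horizontal), for GAGAGA (GA-repeat site), AGACGCAG (8-base site) and GGTGTG (T-box core); red lines are the 247 distal intergenic peaks and grey lines the 4368 unthresholded entries at such locations. The red lines of the first 2 sites reach 27.1% and 10.9% near the summit, while the grey ones reach 8.15% and 1.51%.

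The shares of both sites fell along the pooled list. GAGAGA was in 60.7% of the distal intergenic peaks, then in 46.3% of 244 entries at such locations with ranks 1632 to 3000, in 37.7% of 517 to rank 6000, in 24.7% of 863 to rank 12000 and in 18.3% of 2744 to rank 30000. AGACGCAG was in 25.1%, then 16.4%, 9.67%, 5.45% and 2.41%. The T-box core was in 7.69%, 8.61%, 7.54%, 8.23% and 5.65%. Mean GC content fell along the same ranks as 45.7%, 42.5%, 40.8%, 39.1% and 37.1%, and its part in these shares was not tested. Within the distal intergenic peaks, GAGAGA was in 69.5% of the 82 strongest, 57.3% of the next 82 and 55.4% of the 83 weakest. The 150 peaks with GAGAGA had a median signal value of 136 and a median GC content of 48.0%, and the 97 without it had 118 and 41.3%. For AGACGCAG the medians were 130 with it and 128 without it.

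**Figure D5:**
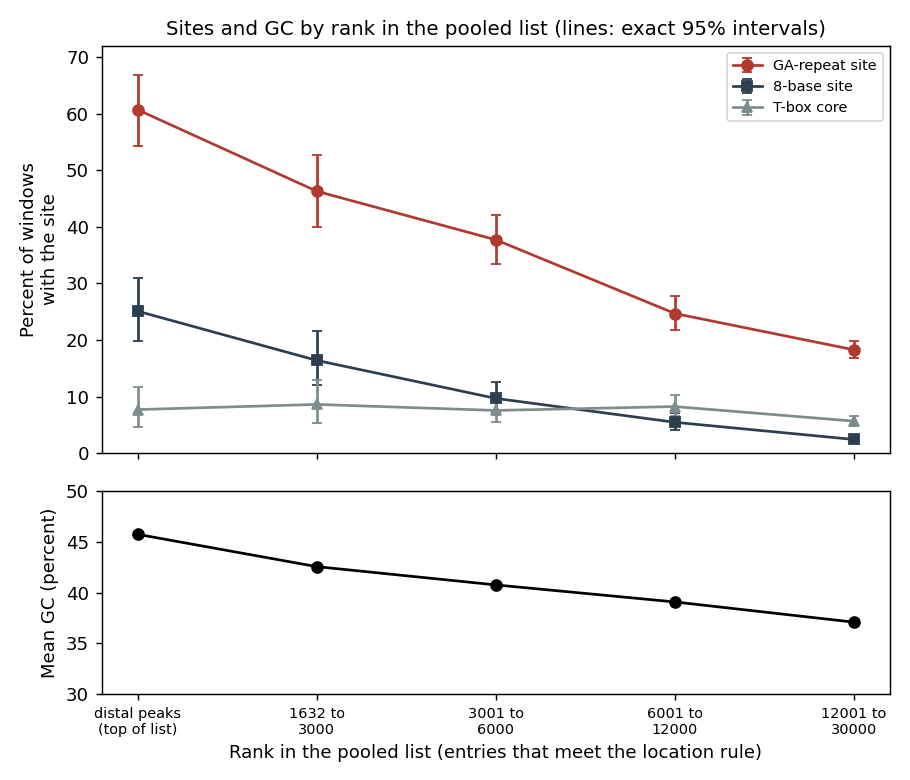
Percent of such windows with each site (upper panel, vertical, with exact 95% intervals) and mean GC content in percent (lower panel, vertical) for entries that meet the location rule, by rank in the pooled list (horizontal); the first point of each line is the 247 distal intergenic peaks, the others are unthresholded entries. GAGAGA (red circles) falls to 18.3% and AGACGCAG (dark squares) to 2.41% at the lowest ranks, as mean GC falls to 37.1%, while GGTGTG (grey triangles) stays between 5.65% and 8.61%.

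AGACGCAG was in 36.0% of the 89 peaks on the outer parts of chromosomes (exact 95% interval 26.1 to 46.8%), against 19.0% of the 158 in the centre (13.2 to 26.0%), with intervals that just miss each other. GAGAGA was in 69.7% and 55.7%, with intervals that overlap. By chromosome the share of AGACGCAG ran from 14.3% on V to 38.5% on I, with intervals that overlap. Between divergent genes 70.7% of peaks had GAGAGA, between tandem genes 58.3% and between convergent genes 42.9%, again with overlapping intervals. Peaks near an RNA gene or pseudogene had GAGAGA in 73.8% (exact 95% interval 61.5 to 84.0%) and the others in 56.0% (48.5 to 63.4%), which overlap. Overlap of separate intervals does not show that shares are alike, and no difference between these groups was tested.

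Soft-masked bases were at 17.4% of distal intergenic summits, 30.8% of unthresholded ones and 41.2% of the centres of all windows of distal intergenic sequence. The 41 bases around the summit were found once in the genome for 244 of 247 peaks. The other 3 were the F40E3.3 peak above, one at K08F11.1 with 6 copies and a signal value of 296, and one at zip-11 with 5 copies and 105.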

How the data were processed

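Members and lists were chosen with earlier results of these data known. Per the deposited file listing, the authors made ranked lists of peaks and background for each replicate (28366 and 30000 entries) and for the pooled replicates (30000), and thresholded the pooled one on IDR. Aligner, caller and IDR version were left unnamed by the labels and listing, as was the role of a control experiment that the labels call possible. The signal value per entry is that of the authors' caller, in deposited narrowPeak format; it ranked and described entries, without normalization between lists. The −log10 q value, deposited by the authors in the same format, was 2.76 in every thresholded entry and was not used. Depth is unknown.

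Coordinates are ce11, set on WBcel235 with Ensembl release 115 and RefSeq sequence. Summits were assigned in the order mitochondrial, X, small RNA gene, promoter, gene body, distal. Replicate values are the strongest overlapping entry, or that of nearest summit where an interval holds several summits and at microRNA genes. Windows of 100 bp to either side of the summit were searched on both strands for 16 listed sites and 1 chosen from counts of 8-base words. Shares have exact Clopper-Pearson 95% intervals. No p-value was computed. The peaks named were the 15 strongest, the strongest per autosome, the farthest from a start, up to 4 per kind of RNA gene, those around the threshold, those with extreme replicate ratios and those nearest to listed genes. The location rule and site search were tested on simulated data. Tools were Python 3.11.15, numpy 2.4.6, pandas 2.3.3, scipy 1.17.1 and matplotlib 3.10.9.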

Additional observations from a re-analysis of the deposited data

How the results depend on the processing

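No paired analysis was possible because the data form 1 group. Of 104 recomputed values, 81 stayed within the main value's interval, or for counts within 1.5 times. Some of these could hardly move. Leaving out the region around tbx-2 took out no member. Counting each interval once, or asking for 500 bp from small RNA genes, left 244 of 247. The count of 81 is thus not a measure of stability. Among the stronger 50% of thresholded peaks there were 99 members, 16.9% of autosomal peaks and 2.15% of pooled entries meeting the rule. Their median signal was 187, 98 were in both top lists, 54.5% were in the central 50% of a chromosome and 67.7% had GAGAGA. A 2000 bp upstream window gave 13.7% of autosomal peaks and a median distance of 2835 bp, and a 500 bp one gave 26.4% and 1730 bp. In windows of 50 bp to either side GGTGTG was in 4.05%, GAGAGA in 42.5% and AGACGCAG in 16.6%. With 200 bp to either side these were 17.8%, 72.9% and 31.2%. GGTGTGA in place of GGTGTG gave 0.405%. RNA genes or pseudogenes were at 12.1% of summits within 0 bp and 41.3% within 1000 bp, and the middle 33.3% of chromosomes held 42.1%. Keeping only the stronger peaks by itself lowers the count of members and their share of pooled entries, and raises their median signal. The cause of the other changes was not tested, beyond the narrower or wider windows and distances themselves. With 1 replicate left out, members numbered 237 to 262, 19.6 to 21.4% of autosomal peaks, and their median signal was 60.4 to 70.7, in the single replicate's own units. GGTGTG was in 6.87 to 8.02%, GAGAGA in 57.6 to 58.2% and AGACGCAG in 22.9 to 24.9%. RNA genes or pseudogenes were at 27.4 to 30.9%, the central 50% held 62.4 to 64.5%, 5.27 to 5.84% of entries meeting the rule were in the top list, and the median distance was 2272 to 2316 bp. Neither rho nor the count in both lists can be had from 1 replicate. The alternatives for GAGAGA and AGACGCAG were chosen after seeing the data. Unknown depth limits any statement on weak sites.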
